A study of Mus musculus with 2 samples.

Results

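The genes described here are 36 immediate-early, feedback and mRNA decay genes, taken by symbol from the 27998 genes of each deposited count matrix. All 36 symbols were found. They comprise 8 AP-1 subunits and partners, 7 zinc finger transcription factors of the Egr and Klf families, 6 genes of the Nr4a, Myc and Ier groups, 10 feedback inhibitors and signalling regulators, and 5 genes of mRNA decay and growth restraint. The lungs came from C57Bl6 mice injured with bleomycin, a DNA-damaging drug that causes lung fibrosis, on day 1. Vehicle or navitoclax (ABT-263), an inhibitor of anti-apoptotic BCL-2 family proteins, was given from day 15 to day 20. At 21 days after injury the lungs were digested with enzymes, and sorted epithelial and stromal cells were pooled at equal parts before single-cell capture, so the ratio of the 2 compartments carries no information. Each treatment had 1 library, and the sources used here do not state how many mice entered it. No uninjured lung was included, so every value below is from injured tissue.

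Immediate-early genes are transcribed within minutes of a signal, from factors that are already present in the cell, and their mRNAs are usually short-lived. The Fos and Jun proteins pair to form AP-1, which binds DNA, and Egr, Klf and Nr4a proteins are transcription factors made in the same wave. Dusp phosphatases and Socs3 switch the inducing kinases off again, while Zfp36 and its relatives bind AU-rich elements in mRNA and recruit the machinery that removes the poly(A) tail. Many of these genes are also known to be induced when solid tissue is dissociated into single cells, as was done for both libraries.

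The 250 bases before the transcription start were read for 27 of the 36 genes from RefSeq (GRCm38.p6), which gave 34 promoters, and 4 are shown: those of Zfp36, Dusp1 and Gadd45b, whose ratios differed between cell types as described below, and that of Fos, which stayed within 25% between the libraries in every large class. These 4 were chosen after the values and the motif matches had been seen. Capitals mark an EGR site (GCGGGGGCG, 105 to 97 bases before the start) and a CArG box (58 to 49) in Zfp36, a CRE (TGACGTCA, 143 to 136) in Dusp1, and a TATA box (TATAAA) in Gadd45b (46 to 41) and Fos (33 to 28).

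Zfp36, chr7:28379229-28379478, minus strand: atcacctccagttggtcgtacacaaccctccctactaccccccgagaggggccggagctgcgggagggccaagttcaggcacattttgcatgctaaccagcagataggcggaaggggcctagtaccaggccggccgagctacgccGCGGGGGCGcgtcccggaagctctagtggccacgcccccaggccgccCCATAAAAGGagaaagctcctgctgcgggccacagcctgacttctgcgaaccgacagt

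Dusp1, chr17:26508473-26508722, minus strand: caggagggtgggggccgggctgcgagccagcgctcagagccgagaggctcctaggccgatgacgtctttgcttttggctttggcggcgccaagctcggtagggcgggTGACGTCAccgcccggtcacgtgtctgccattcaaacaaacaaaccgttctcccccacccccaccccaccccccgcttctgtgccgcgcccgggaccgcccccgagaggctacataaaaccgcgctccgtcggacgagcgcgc

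Gadd45b, chr10:80929841-80930090, plus strand: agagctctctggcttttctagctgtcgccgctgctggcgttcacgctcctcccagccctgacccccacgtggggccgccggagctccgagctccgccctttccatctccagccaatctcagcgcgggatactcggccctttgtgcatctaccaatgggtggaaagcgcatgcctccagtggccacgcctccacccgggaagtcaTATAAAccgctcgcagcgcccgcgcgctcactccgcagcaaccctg

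Fos, chr12:85473640-85473889, plus strand: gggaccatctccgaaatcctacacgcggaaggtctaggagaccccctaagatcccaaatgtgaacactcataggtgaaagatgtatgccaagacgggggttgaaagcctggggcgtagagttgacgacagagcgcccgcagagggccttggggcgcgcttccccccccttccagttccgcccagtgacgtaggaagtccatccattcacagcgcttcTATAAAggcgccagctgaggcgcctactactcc

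The EGR site was present in 7 of the 27 genes (25.9%), namely Fosb, Fosl2, Klf2, Klf4, Nr4a1, Socs3 and Zfp36, and in 2.93% of all genes with a promoter in the same set. The TATA box, searched on the coding strand only, was present in 5 of 27 (18.5%, against 8.94% of all genes), and the CRE in 2, Dusp1 and Maff (7.41%, against 1.77%). The shorter CRE core TGACG, which lies within every CRE, was present in 12 of 27 (44.4%, against 19.8%) and is not capitalised in the sequences. The CArG box, the site of serum response factor, was present in Egr2 and Zfp36 (7.41%, against 1.62%). The AP-1 site TGANTCA was present in 1 of 27, Zfp36l1 (3.70%, against 7.82%). All motifs except the TATA box were searched on both strands, and each match is a match of letters only.

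The vehicle library held 8784 barcodes and the navitoclax library 8064, with medians of 9125 and 9920.5 unique molecular identifiers (UMIs, each standing for 1 captured mRNA). After filtering, 7172 vehicle and 6234 navitoclax cells remained, and each was assigned to a class from its own marker genes, with 351 and 324 cells left unnamed. The classes that reached 100 cells in each library were type II alveolar-like (AT2-like) cells, with 2827 vehicle and 2566 navitoclax cells, ciliated-like cells, with 376 and 432, and fibroblasts, with 3301 and 2719. The fibroblasts divided into alveolar-like (2679 and 2095), adventitial-like (369 and 350) and peribronchial-like cells (132 and 171). Each of these classes had more of its own markers than of any other class among its 10 leading genes. The cells were assigned by these same markers, so this is no independent check of the names. Navitoclax cells were deeper, with median UMIs of 19662.5 against 17883 in AT2-like cells and 8233 against 7547 in fibroblasts. The libraries shared 20 barcodes.

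Levels are UMIs summed over the cells of a class and scaled to 1000000 UMIs of that class (CPM), and brackets hold exact 95% intervals of the ratio that cover counting error only. With 1 library per treatment no test is possible, and differences between mice or preparations cannot be told apart from treatment. Genes with at least 50 UMIs in both libraries together were counted, and a gene is called higher here when its navitoclax level exceeded its vehicle level by more than 25%, and lower when its vehicle level exceeded its navitoclax level by more than 25%. This limit is called the fold limit below.

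As a share of UMIs, the 36 genes together were far more abundant in stromal than in epithelial cells. Their summed level in vehicle cells was 6485 CPM in AT2-like cells and 7569 CPM in ciliated-like cells, against 16345 CPM in alveolar-like, 28058 CPM in adventitial-like and 31057 CPM in peribronchial-like fibroblasts. In navitoclax cells the sums were 6110, 8101, 14483, 23860 and 30862 CPM in the same order. The order of the classes by this sum was thus the same in both libraries. These levels are shares, and the depth of the classes differed. Vehicle AT2-like cells had a median of 17883 UMIs, against 7480 in alveolar-like fibroblasts. As plain counts, the genes had 335783 UMIs in 2827 vehicle AT2-like cells and 341897 in 2679 vehicle alveolar-like fibroblasts. The summed CPM was lower with navitoclax in AT2-like cells and in alveolar-like and adventitial-like fibroblasts, and higher in ciliated-like cells. In peribronchial-like fibroblasts the ratio of the sums was 0.994 (0.978 to 1.01). Cell by cell, the genes made up a median of 0.632% of the UMIs of a vehicle AT2-like cell and 0.586% of a navitoclax one, and 2.73% and 2.32% in adventitial-like fibroblasts.

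**Figure D1:**
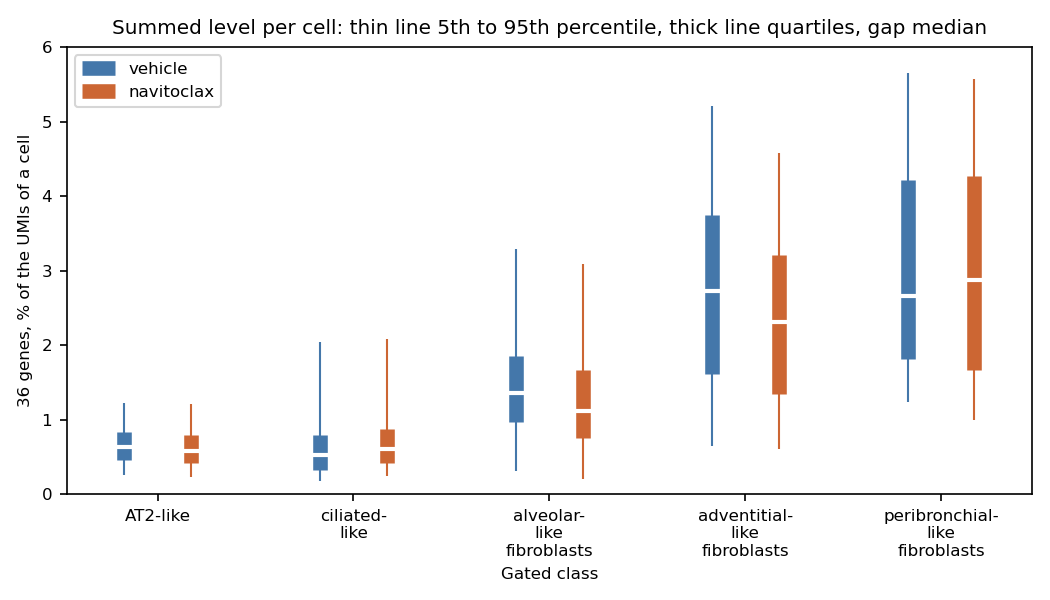
Percent of each cell's UMIs (vertical axis) that came from the 36 genes, by class and library. The gap marks the median, the thick line the quartiles and the thin line the 5th to 95th percentile of cells, which are not replicates. Alveolar-like fibroblasts had medians of 1.36% (vehicle) and 1.12% (navitoclax), and the ranges of all 3 fibroblast classes reached above those of AT2-like cells.

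Single genes differed between classes by much more than the sum. Egr1 was lowest in AT2-like cells, at 91.7 CPM in vehicle and 141 CPM in navitoclax, and highest in peribronchial-like fibroblasts, at 3659 and 3488 CPM. Junb ran from 290.1 CPM in AT2-like to 4316 CPM in peribronchial-like vehicle cells, a 14.9-fold range. Klf4 ran from 5.45 CPM in ciliated-like to 793 CPM in adventitial-like vehicle cells, a 146-fold range. Klf6 had the reverse order, being highest in ciliated-like cells (582 CPM in vehicle) and lowest in peribronchial-like fibroblasts (176 CPM). Rgs2, which encodes a regulator that shortens G protein signalling, divided the fibroblasts: 413 CPM in alveolar-like and 1710 CPM in peribronchial-like vehicle cells, but 9.82 CPM in adventitial-like cells.

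Free RNA from other cells sets a floor for such levels. The 8 fibroblast markers reached 0.542% of their fibroblast level in vehicle AT2-like cells and 0.691% in navitoclax AT2-like cells. Rgs2 in AT2-like cells was at 0.521% and 0.935% of its fibroblast level (2.07 and 2.44 CPM), which is read as background. Egr1 in AT2-like cells was at 6.04% and 9.82% of its fibroblast level, Gadd45b at 11.4% and 26.4%, and Phlda1 at 36.6% and 63.0%, all above the share of the markers. All 8 fibroblast markers were higher in the navitoclax AT2-like cells, with a sum of 87.4 CPM in vehicle and 119 CPM in navitoclax.

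**Figure D2:**
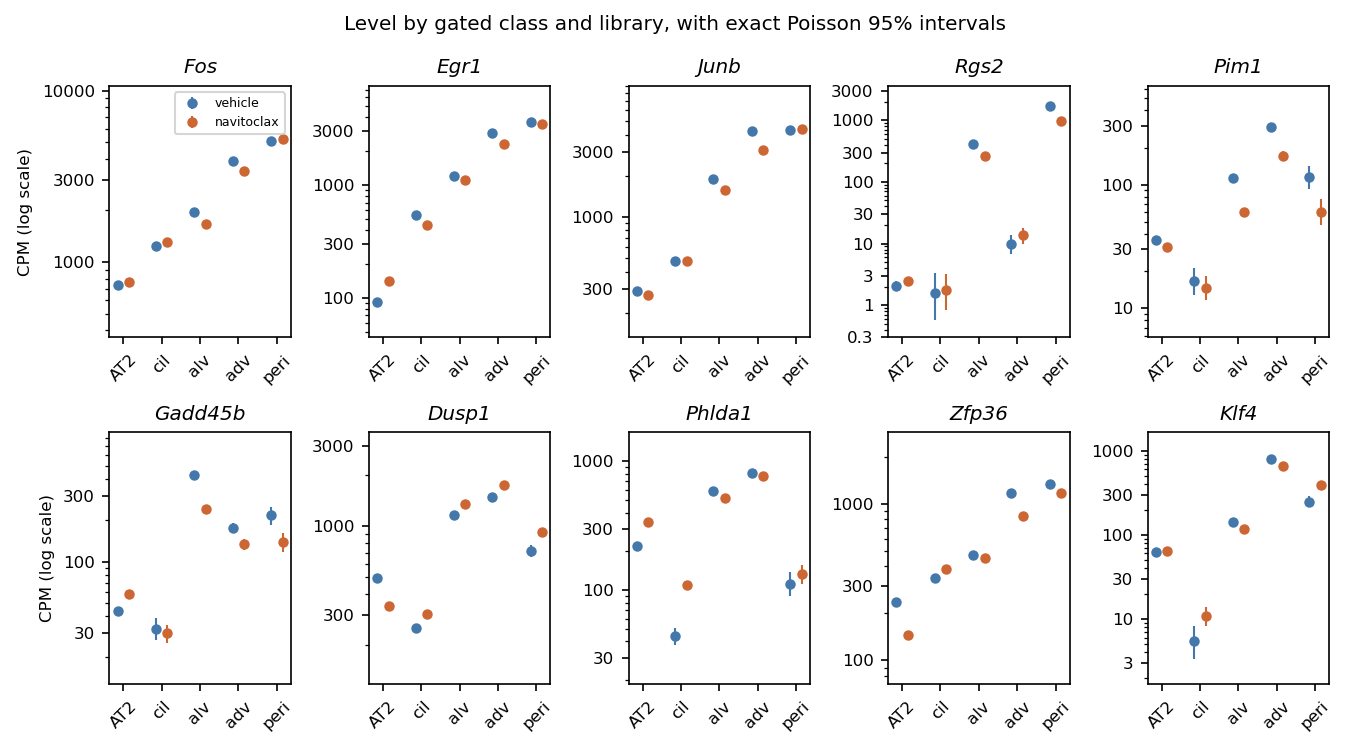
Level of 10 genes in CPM (vertical axis, log scale) in AT2-like cells (AT2), ciliated-like cells (cil) and alveolar-like (alv), adventitial-like (adv) and peribronchial-like (peri) fibroblasts. Points are the vehicle and navitoclax libraries and bars are exact Poisson 95% intervals. Egr1 and Junb are lowest in AT2-like cells, Rgs2 is high in 2 of the 3 fibroblast classes, and Dusp1 and Gadd45b have opposite library orders in AT2-like cells and alveolar-like fibroblasts.

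The list did not move as a block. Of the classes below, all but ciliated-like cells had both lower and higher members. Some members were called in the same direction in different classes. In AT2-like cells 7 of the 34 counted genes were lower and 6 higher, where 4.11% and 9.09% of all genes counted in these cells were. In pooled fibroblasts 7 of 34 were lower and 2 higher (all genes, 5.44% and 8.34%). In alveolar-like fibroblasts 6 of 34 were lower and 3 higher (5.79% and 8.23%), and in ciliated-like cells 0 of 30 were lower and 4 higher (8.93% and 8.74%). Of these classes, adventitial-like fibroblasts had the most lower members, 15 of 33, with 2 higher (11.1% and 13.7%). Peribronchial-like fibroblasts had 3 of 31 lower and 7 higher (14.4% and 16.3%), so there both counts lie nearer to the share over all genes.

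The share over all genes was smaller among better expressed genes, except in peribronchial-like fibroblasts. Among genes with a mean of at least 20 CPM in AT2-like cells, 1.21% were lower and 1.3% higher, and 5 of 27 members were lower and 5 higher. In ciliated-like cells 4.62% and 3.72% were, and 0 and 3 of 28 members. In alveolar-like fibroblasts 2.16% and 2.59% were, and 6 and 1 of 31 members. In pooled fibroblasts 2.25% and 2.71% were, and 6 and 0 of 31 members. In adventitial-like fibroblasts 6.96% and 9.33% were, and 15 and 1 of 32 members. In peribronchial-like fibroblasts, where the limit removed no gene, 14.4% and 16.3% were, and 3 and 7 of 31 members. The members' share of lower genes thus lay above that of all genes except in ciliated-like cells and peribronchial-like fibroblasts. Their share of higher genes lay above that of all genes except in adventitial-like and pooled fibroblasts. In alveolar-like fibroblasts the shares of higher genes were close. The list was chosen with earlier results of these data known, so these comparisons are no independent support. The median log2 ratio of the counted members was -0.04 in AT2-like cells, 0.00 in ciliated-like cells, -0.18 in alveolar-like, -0.27 in adventitial-like and 0.04 in peribronchial-like fibroblasts. Over all counted genes it lay between -0.01 and 0.02 in these 5 classes.

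Over the 5 classes that share no cells, 29 members were counted in all 5. Of these, 18 were lower in at least 1 class, where 22.4% of all genes counted in all 5 were, and 12 were higher in at least 1, where 27.1% of all genes were. There were 5 of the 29 that were lower in 1 class and higher in another (all genes, 3.99%), and 2 that were lower in at least 3 (0.953%). The last 2 were Pim1 and Gadd45b, each lower in the same 3 fibroblast classes. Fos, Fosl2, Klf6 and Klf10 stayed within the fold limit in every one of the 5 classes. Egr3 had too few UMIs to be counted in any class.

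**Figure D3:**
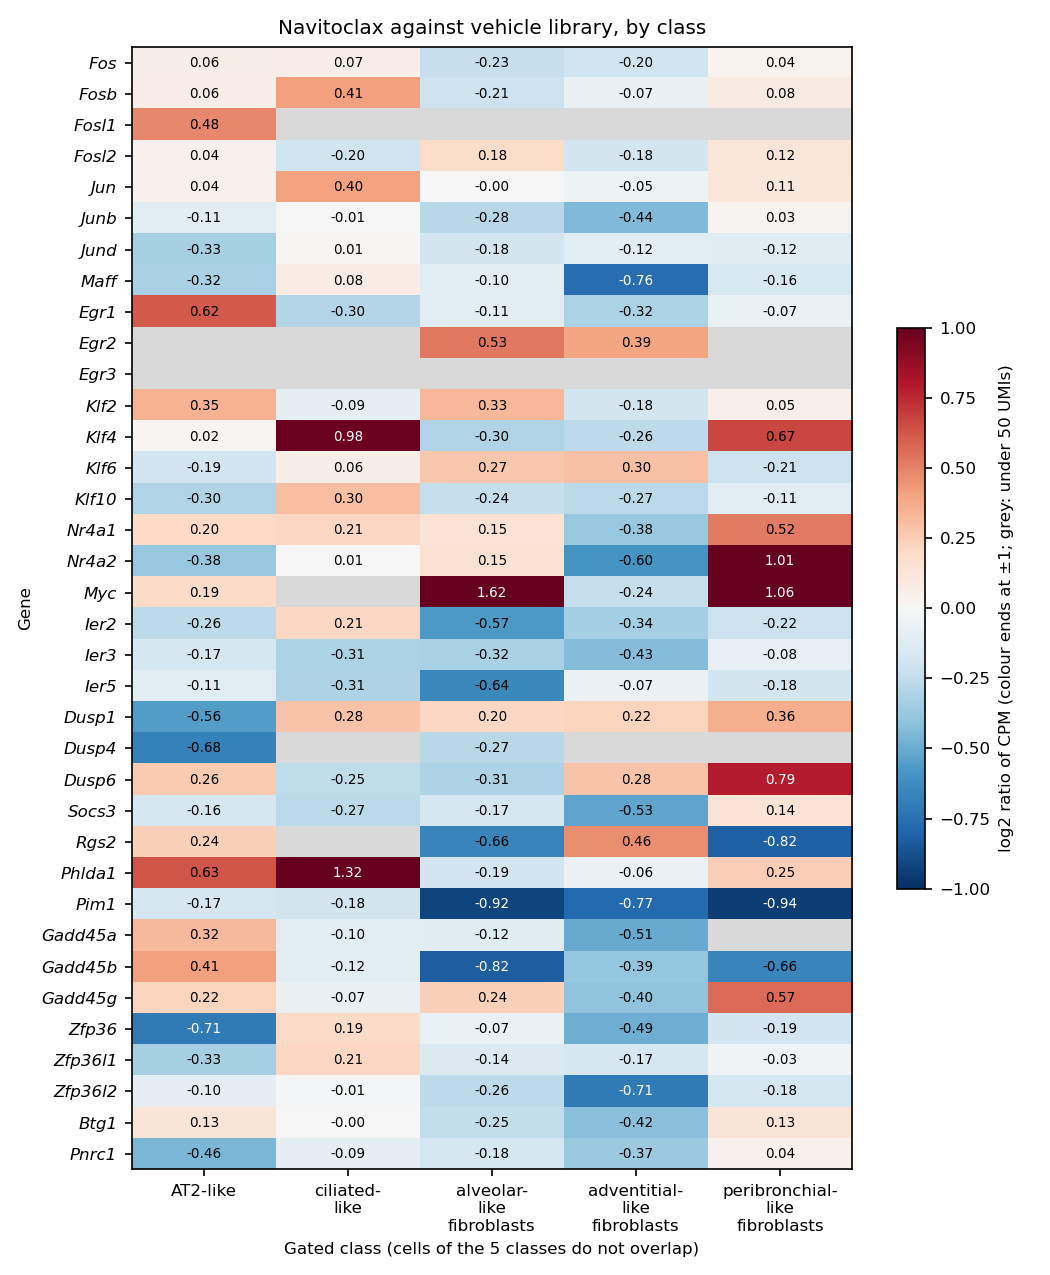
Log2 ratio of navitoclax to vehicle CPM for the 36 genes (rows) in 5 classes (columns), with blue for lower and red for higher in the navitoclax library and grey for genes under 50 UMIs. Blue cells fill most of the adventitial-like column, Zfp36 and Dusp1 are blue in AT2-like cells, and Pim1 and Gadd45b are blue in all 3 fibroblast columns.

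Of 8 counted AP-1 genes in AT2-like cells 1 was lower and 1 higher (all genes, 4.11% and 9.09%). Of 7 in alveolar-like fibroblasts none was past the fold limit (all genes, 5.79% lower and 8.23% higher). With so few genes these counts are not read. Fos, the inducible AP-1 subunit, had 735 CPM in vehicle and 767 CPM in navitoclax AT2-like cells, 1.04-fold higher (1.03 to 1.06), and 1960 and 1671 CPM in alveolar-like fibroblasts, 1.17-fold lower (1.16 to 1.19). Jun, its partner, had 1101 and 1131 CPM in AT2-like cells and 1614 and 1612 CPM in alveolar-like fibroblasts. Both genes stayed within the fold limit in these 2 most numerous classes. Jund, the AP-1 subunit known for steady rather than pulsed expression, was the AP-1 gene called lower in AT2-like cells, with 913 CPM in vehicle and 726 CPM in navitoclax (1.26-fold, 1.24 to 1.27). Maff, a small Maf protein without an activation domain, had 18.3 and 14.7 CPM there and lay just inside the fold limit (log2 ratio -0.32).

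In adventitial-like fibroblasts the AP-1 genes called lower were Junb and Maff. Junb had 4225 CPM in vehicle and 3107 CPM in navitoclax (1.36-fold, 1.33 to 1.39), and Maff had 151 and 89.3 CPM (1.70-fold, 1.47 to 1.96). In peribronchial-like fibroblasts Junb had 4316 and 4407 CPM. None of the 7 counted AP-1 genes was past the fold there (all genes, 14.4% lower and 16.3% higher). In ciliated-like cells Jun was 1.32-fold higher (1.27 to 1.37; 981 and 1294 CPM) and Fosb 1.33-fold higher (1.21 to 1.46; 163 and 217 CPM), while Fos was at 1249 and 1308 CPM. Fosl1, called higher in AT2-like cells from 26 and 37 UMIs, had an interval that includes equality (0.821 to 2.40).

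Among the zinc finger factors, Egr1 had its one call in AT2-like cells. In AT2-like cells Egr1, a factor induced through serum response elements, was 1.53-fold higher in the navitoclax library (1.48 to 1.59; 91.7 and 141 CPM). In alveolar-like fibroblasts it had 1203 and 1112 CPM, and in adventitial-like fibroblasts 2889 and 2316 CPM (log2 ratio -0.32, just inside the fold limit). In ciliated-like cells it had 547 and 446 CPM, 1.23-fold lower. Egr1 was thus above its vehicle level in AT2-like cells, the class where its level was lowest, and below it in the other 4 classes, and these differences between classes were not tested.

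The Klf genes each had their own pattern. Klf2, a factor known from quiescent and flow-exposed cells, was higher in AT2-like cells (19.8 and 25.2 CPM, 1.27-fold, 1.17 to 1.38) and in alveolar-like fibroblasts (107 and 135 CPM, 1.26-fold, 1.19 to 1.34). In AT2-like cells its log2 ratio was above 0 in 4 of 4 quartiles of depth (0.23 to 0.73). It was above 0 in 2 of 3 bins of mitochondrial content (-0.26 to 0.45) and in 4 of 5 clusters (-0.09 to 1.14). In cells thinned to 2000 UMIs, which left 128 and 115 UMIs of Klf2, it was -0.0166 with an interval from -0.39 to 0.36, so no difference was detectable at that depth. Klf4 was higher in peribronchial-like fibroblasts (249 and 396 CPM, 1.59-fold, 1.34 to 1.89) and in ciliated-like cells (5.45 and 10.8 CPM, from 21 and 61 UMIs), and lower but within the fold in alveolar-like fibroblasts (143 and 116 CPM). Egr2, low everywhere, was higher in alveolar-like fibroblasts, at 7.65 and 11.0 CPM (1.44-fold, 1.17 to 1.79). It was also called higher in adventitial-like fibroblasts, where its level was greatest, at 22.2 and 29.1 CPM.

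The orphan nuclear receptor genes Nr4a1 and Nr4a2, which encode transcription factors that act without a known ligand, moved in opposite directions in 2 fibroblast classes. In adventitial-like fibroblasts Nr4a1 had 623 CPM in vehicle and 479.8 CPM in navitoclax (1.30-fold lower, 1.21 to 1.39). In peribronchial-like fibroblasts it had 454 and 649 CPM (1.43-fold higher, 1.26 to 1.63). Nr4a2 had 74.1 and 49.0 CPM in adventitial-like cells and 66.6 and 134 CPM in peribronchial-like cells, so the vehicle levels of the 2 classes were close and the navitoclax levels were far apart. In AT2-like cells Nr4a2 was 1.30-fold lower (22.0 and 16.9 CPM), with log2 ratios from -0.52 to -0.21 in the 4 quartiles of depth. Thinning to 2000 UMIs left 131 and 115 UMIs of Nr4a2 and a log2 ratio of -0.05 (-0.42 to 0.32), at which no difference was detectable. Myc, the growth-promoting transcription factor, was higher in alveolar-like fibroblasts, from 26 UMIs in vehicle and 69 in navitoclax (1.24 and 3.81 CPM), and in peribronchial-like fibroblasts, from 27 and 82 UMIs (33.9 and 70.7 CPM).

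The Ier genes are a set of short immediate early response genes. All 3 were lower in alveolar-like fibroblasts (all genes, 5.79%) and 2 in adventitial-like ones (all genes, 11.1%). In alveolar-like fibroblasts Ier5, which encodes a regulator of heat shock factor, had 297 and 191 CPM (1.56-fold lower, 1.5 to 1.63). In the same cells Ier2 had 805 and 542 CPM (1.49-fold lower, 1.45 to 1.52), and Ier3, a survival gene, had 181 and 145 CPM (log2 ratio -0.32, just past the fold limit). Ier2 and Ier3 were also lower in adventitial-like fibroblasts, at 1411 and 1113 CPM and at 249 and 184 CPM, whereas Ier5 there had 174 and 166 CPM. In AT2-like cells all 3 were lower but within the fold limit, with Ier2 at 219 and 183 CPM. In peribronchial-like fibroblasts the 3 genes were within the fold too.

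The feedback and signalling regulators held the 2 genes that were lower in all 3 fibroblast classes. Pim1, a short-lived serine/threonine kinase induced by cytokine signalling, had 113 CPM in vehicle and 59.9 CPM in navitoclax alveolar-like fibroblasts (1.89-fold lower, 1.76 to 2.03). It had 295 and 173 CPM in adventitial-like fibroblasts (1.71-fold, 1.54 to 1.90) and 116 and 60.3 CPM in peribronchial-like fibroblasts (1.92-fold, 1.39 to 2.65). In AT2-like cells Pim1 was low in both libraries, at 35.6 and 31.6 CPM, and within the fold. The 3 fibroblast ratios lay close together, although the vehicle level of adventitial-like fibroblasts was higher than that of the other 2 classes.

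Gadd45b, a stress sensor that activates p38 and JNK kinases, had 432 and 245 CPM in alveolar-like fibroblasts (1.77-fold lower, 1.70 to 1.83), 175 and 134 CPM in adventitial-like and 217 and 138 CPM in peribronchial-like fibroblasts. In AT2-like cells Gadd45b was higher with navitoclax, at 43.6 and 58.1 CPM (1.33-fold, 1.26 to 1.41). Its relative Gadd45g was 1.32-fold lower in adventitial-like fibroblasts (350.4 and 265 CPM) and 1.48-fold higher in peribronchial-like ones (353 and 523 CPM), from nearly equal vehicle levels. Gadd45a, the p53 target of the family, was just past the fold limit in AT2-like cells (27.5 and 34.4 CPM, log2 ratio 0.32) and had 23.8 and 16.7 CPM in adventitial-like fibroblasts, where its interval includes equality (1.42-fold lower, 0.996 to 2.04).

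Dusp1, the phosphatase that switches off p38 and JNK, had opposite library orders in AT2-like cells and in the other classes. In AT2-like cells it had 498 CPM in vehicle and 338 CPM in navitoclax (1.47-fold lower, 1.44 to 1.5). In alveolar-like fibroblasts it had 1173 and 1351 CPM and in adventitial-like fibroblasts 1500 and 1749 CPM, higher in the navitoclax library but within the fold, and in peribronchial-like fibroblasts 718 and 923 CPM (1.29-fold higher, 1.16 to 1.43). In ciliated-like cells it had 250.4 and 305 CPM, again higher but within the fold. The ERK phosphatase gene Dusp4 was also lower in AT2-like cells, at 5.47 and 3.42 CPM (1.60-fold, 1.32 to 1.94), whereas Dusp6 had 36.6 and 43.9 CPM there, within the fold. In peribronchial-like fibroblasts Dusp6 was higher, as Dusp1 was, at 36.5 and 62.9 CPM (1.73-fold, 1.11 to 2.75).

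Phlda1, which encodes a pleckstrin homology-like protein that restrains growth factor signalling, was higher in both epithelial classes. It had 219 CPM in vehicle and 338 CPM in navitoclax AT2-like cells (1.54-fold, 1.51 to 1.58) and 43.9 and 110 CPM in ciliated-like cells (2.50-fold, 2.11 to 2.98). In alveolar-like fibroblasts it had 592 and 517 CPM, within the fold. Socs3, the inhibitor of cytokine receptor signalling, was lower in adventitial-like fibroblasts, at 727 and 504 CPM (1.44-fold, 1.36 to 1.54), and within the fold in the other 4 classes. Rgs2 was called in opposite directions within the fibroblasts. It was lower in the 2 classes where it is abundant, at 413 and 262 CPM in alveolar-like (1.58-fold, 1.52 to 1.63) and 1710 and 970 CPM in peribronchial-like cells (1.76-fold, 1.63 to 1.91). In adventitial-like fibroblasts it was called higher from 31 and 47 UMIs (9.82 and 13.5 CPM), with an interval that includes equality (1.38-fold, 0.858 to 2.25).

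**Figure D4:**
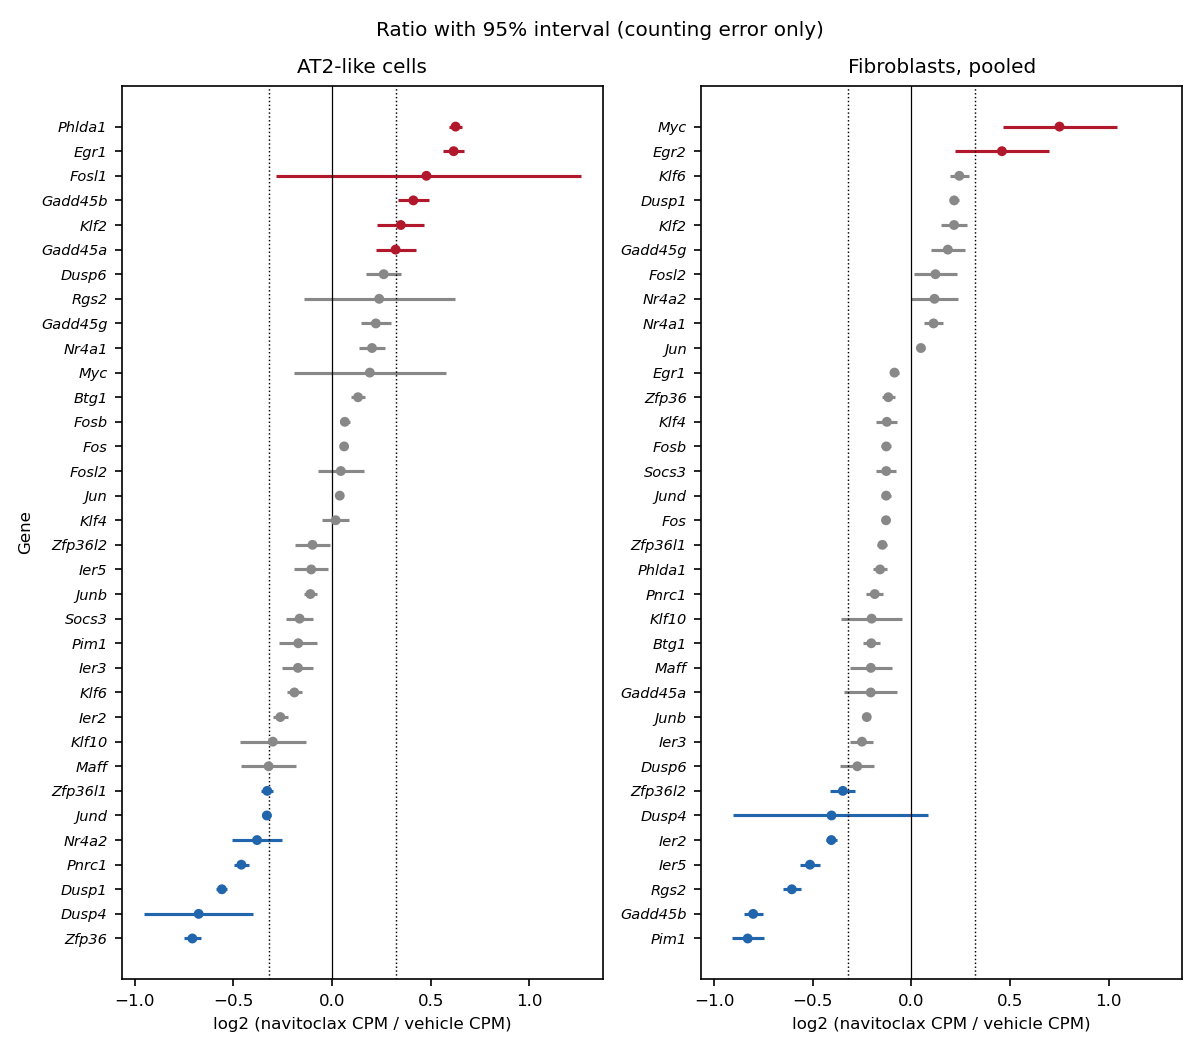
Log2 ratio of navitoclax to vehicle CPM (horizontal axis) with exact 95% counting intervals for the counted members in AT2-like cells (left) and pooled fibroblasts (right), ordered by ratio. Dotted lines mark the fold limit in each direction, and colours mark genes past it. Zfp36 and Dusp1 lie among the lowest genes in AT2-like cells, and Pim1 and Gadd45b are the lowest in fibroblasts.

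The mRNA decay genes had calls in AT2-like cells and in adventitial-like fibroblasts among the 5 large classes, and all of these were in the lower direction. In AT2-like cells 3 of the 5 were lower and 0 higher (all genes, 4.11% and 9.09%), with a median log2 ratio of -0.33 and a summed level of 1103 CPM in vehicle and 889 CPM in navitoclax. Zfp36, which encodes tristetraprolin, had 237 and 145 CPM (1.63-fold lower, 1.59 to 1.68). Pnrc1, a nuclear receptor coactivator that also binds the decapping complex, had 236 and 172 CPM (1.38-fold lower, 1.34 to 1.41), and Zfp36l1 had 371 and 295 CPM (1.26-fold lower, 1.23 to 1.28). Btg1, a growth-restraining protein that binds the deadenylase complex, was 1.10-fold higher, at 216 and 237 CPM. The group was therefore not uniform in these cells.

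In adventitial-like fibroblasts 4 of the 5 decay genes were lower (all genes, 11.1%) and Zfp36l1 was within the fold, at 702 and 626 CPM. Zfp36l2 had 351 and 215 CPM (1.63-fold, 1.49 to 1.80), Zfp36 had 1182 and 844 CPM (1.40-fold, 1.33 to 1.47), Btg1 had 307 and 229 CPM, and Pnrc1 was 1.29-fold lower. In alveolar-like fibroblasts Zfp36 had 472 and 451 CPM. None of the 5 was past the fold there (all genes, 5.79% lower and 8.23% higher). All 5 were below their vehicle level, with a median log2 ratio of -0.18 and sums of 2538 and 2280 CPM. In ciliated-like cells Zfp36 had 335 and 382 CPM, 1.14-fold higher (1.06 to 1.22). None of these differences between classes was tested.

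The ratios were also read within clusters formed without the 36 genes and the other listed stress genes, in those with at least 100 cells in both libraries. In the 5 AT2-like clusters the log2 ratio of Zfp36 ran from -0.85 to -0.45, that of Dusp1 from -0.60 to -0.49 and that of Pnrc1 from -0.50 to -0.39. Egr1 ran from 0.34 to 0.79 and Phlda1 from 0.31 to 0.62 in the same clusters. Gadd45b was above 0 in 4 of 5, and Fos in 3 of 5. Among fibroblasts Pim1 was below 0 in 7 of the 7 clusters that counted it, and Gadd45b, Ier2, Ier5 and Pnrc1 in 8 of 8. Rgs2 was below 0 in 7 of 8 and Dusp1 above 0 in 6 of 8.

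**Figure D5:**
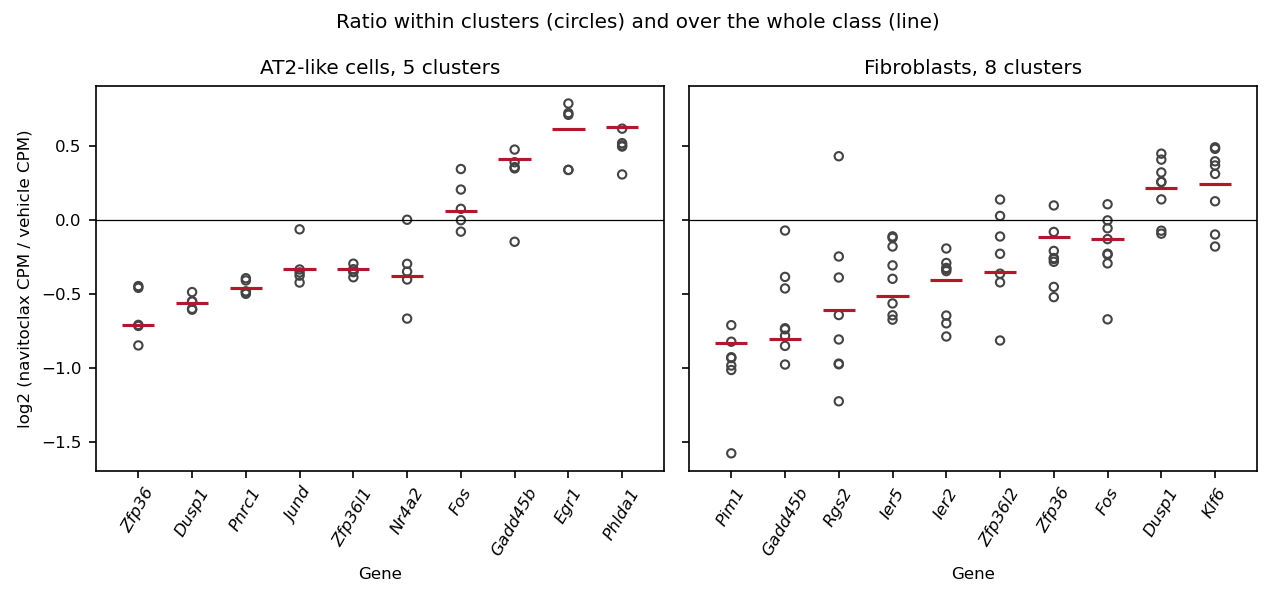
Log2 ratio of navitoclax to vehicle CPM (vertical axis) for 10 genes each in AT2-like cells and fibroblasts. Circles are single clusters and the red line is the whole class. Zfp36, Dusp1 and Pnrc1 lie below 0 in all 5 AT2-like clusters, Egr1 and Phlda1 above 0 in all 5, and Pim1 below 0 in all 7 fibroblast clusters that counted it.

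Dusp1, Pnrc1, Phlda1, Zfp36, Zfp36l1 and Egr1 kept their direction across cells of different mitochondrial content, but not all kept their size. In AT2-like cells with 0 to 5%, 5 to 10% and 10 to 15% mitochondrial UMIs, the log2 ratio of Dusp1 lay between -0.61 and -0.52, that of Pnrc1 between -0.48 and -0.37 and that of Phlda1 between 0.57 and 0.64. Zfp36 ran from -0.79 to -0.36, Zfp36l1 from -0.37 to -0.04 and Egr1 from 0.50 to 0.97. The median of the counted members went from -0.08 through -0.05 to 0.19 over these bins, the last with 142 vehicle and 139 navitoclax cells. In quartiles of depth, Dusp1 lay between -0.56 and -0.45 in AT2-like cells and Gadd45b between -0.87 and -0.65 in fibroblasts.

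The genes differed in how far they varied with the rest of the list from cell to cell. Across alveolar-like fibroblasts thinned to 2000 UMIs (2525 vehicle and 1979 navitoclax cells), the correlation of a gene with the sum of the other members was 0.59 and 0.61 for Fos, 0.55 and 0.59 for Egr1, 0.55 and 0.54 for Jun, 0.53 and 0.54 for Junb and 0.52 and 0.55 for Fosb, the 5 highest in each library. It was 0.41 and 0.46 for Dusp1, 0.40 and 0.39 for Jund, 0.38 and 0.34 for Ier2 and 0.37 and 0.43 for Zfp36. Weak values, which are not read, came from immediate-early genes such as Fosl2 (0.08 and 0.13), Nr4a2 (0.09 and 0.17), Klf10 (0.06 and 0.06) and Ier5 (0.14 and 0.13) as well as from Pim1 (0.17 and 0.16), Gadd45b (0.14 and 0.13) and Gadd45a (-0.01 and 0.05). The closest pair was Fos with Fosb, at 0.57 and 0.60, and 48 of 465 pairs were above 0.2 in both libraries. In AT2-like cells the values were smaller, with 0.35 and 0.38 for Fos and 5 of 435 pairs above 0.2. Cells of a library share that library's capture and handling, and sparse counts pull such values toward 0. Weak values were not confined to sparse genes. Thinned vehicle alveolar-like fibroblasts held 2336 UMIs of Gadd45b, 2796 of Phlda1 and 2244 of Rgs2, against 2274 of Zfp36. The correlations there were 0.11 and 0.18 for Phlda1 and 0.08 and 0.14 for Rgs2.

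Other listed genes of the same kind were read in the same cells. Of 46 counted further immediate-early and dissociation-induced genes in AT2-like cells, 6 were lower and 10 higher (all genes, 4.11% and 9.09%), with a median log2 ratio of 0.04. They included Hes1, a Notch target, at 128 and 81.7 CPM (1.57-fold lower), and the EGF receptor ligand Areg at 61.4 and 109 CPM (1.77-fold higher). In alveolar-like fibroblasts 5 of 45 were lower and 13 higher (all genes, 5.79% and 8.23%), with Hes1 at 500 and 224 CPM (2.23-fold lower) and Sgk1, a glucocorticoid-induced kinase, at 34.9 and 83.6 CPM (2.40-fold higher). In adventitial-like fibroblasts 10 of 41 were lower and 9 higher (all genes, 11.1% and 13.7%), with the prostaglandin synthase gene Ptgs2 at 144 and 80.4 CPM and the phosphatase gene Dusp8 at 10.1 and 20.5 CPM.

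Of 32 counted genes of the general mRNA decay machinery, 2 were lower in AT2-like cells and 0 higher (all genes, 4.11% and 9.09%), the lower ones being Btg2, a relative of Btg1, at 283 and 213 CPM, and the endonuclease gene Zc3h12a at 5.58 and 3.78 CPM. In alveolar-like fibroblasts 1 of 32 was lower and 2 higher (all genes, 5.79% and 8.23%), including Tob1, a deadenylase partner, at 23.7 and 34.9 CPM. In adventitial-like fibroblasts 2 of 29 were lower and 4 higher (all genes, 11.1% and 13.7%), and in peribronchial-like fibroblasts 4 of 21 were lower and 5 higher (14.4% and 16.3%). A list of mRNAs known as Zfp36 targets was drawn up from general knowledge, not from a file, and 18 of them were counted in AT2-like cells, with 3 lower and 5 higher (all genes, 4.11% and 9.09%). The chemokine mRNAs among them split, with Cxcl1 at 3.92 and 7.13 CPM and Cxcl10 at 1.89 and 0.189 CPM (98 and 10 UMIs). In alveolar-like fibroblasts 1 of 16 targets was lower and 4 higher (all genes, 5.79% and 8.23%), among them the urokinase receptor gene Plaur at 2.68 and 5.35 CPM. The kinases and factors upstream of immediate-early genes had 1 of 27 lower and 0 higher in AT2-like cells (all genes, 4.11% and 9.09%). The counts were the same in alveolar-like fibroblasts (5.79% and 8.23%). The gene with the greatest difference in both was Map3k8, at 5.95 and 3.78 CPM and at 10.2 and 7.45 CPM.

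Among heat shock genes, the greatest differences came from inducible HSP70. Hspa1a, which encodes an inducible HSP70 and has a near-identical copy in Hspa1b, had 17.6 CPM in vehicle and 525 CPM in navitoclax AT2-like cells (29.9-fold higher, 27.9 to 31.9). It had 60.05 and 754 CPM in alveolar-like fibroblasts and 13.8 and 93.98 CPM in ciliated-like cells. Of 14 heat shock genes 7 were higher in AT2-like cells and 0 lower, with 7 within the fold (all genes, 9.09% higher and 4.11% lower). In ciliated-like cells 5 of 14 were higher and 0 lower (8.74% and 8.93%). In alveolar-like fibroblasts 8 of 14 were higher and 0 lower (8.23% and 5.79%). In adventitial-like fibroblasts 11 of 14 were higher and 0 lower (13.7% and 11.1%). In peribronchial-like fibroblasts 10 of 12 counted ones were higher and 0 lower (16.3% and 14.4%). Neat1, a nuclear long noncoding RNA, had 966 and 562 CPM in AT2-like cells and 705 and 731 CPM in alveolar-like fibroblasts. Malat1, another nuclear RNA, had 27188 and 22457 CPM in AT2-like cells. More barcodes of the navitoclax library exceeded 15% mitochondrial UMIs (18.1% against 13.8%). The part of these differences in the values of the 36 genes was not tested.

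Markers of cells outside the sorted compartments were low. The 8 immune markers summed to 6.14 CPM in vehicle and 6.503 CPM in navitoclax AT2-like cells, to 7.60 and 8.003 CPM in alveolar-like fibroblasts and to 7.92 and 15.3 CPM in adventitial-like fibroblasts. The 7 endothelial markers summed to 1.58 and 1.78 CPM in AT2-like cells. In adventitial-like fibroblasts they summed to 126 and 124 CPM, with Cdh5 and Emcn at 0 in both libraries. The 9 AT2 markers summed to 2490 and 2904 CPM in alveolar-like fibroblasts, with 8 of 9 higher in the navitoclax library. The part of these levels in the values of the 36 genes was not tested.

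Rare classes gave values with little depth. In 40 vehicle and 36 navitoclax transitional alveolar-like cells, which stand between the AT2 and AT1 fates, 4 of 26 counted members were lower and 12 higher (all genes, 24.6% and 18.8%), with sums of 7452 and 9383 CPM. In 82 and 20 AT1-like cells 3 of 18 were lower and 12 higher (26.2% and 19.9%). In 59 and 28 mesothelial-like cells 14 of 22 were lower and 1 higher (18.3% and 17.6%), with sums of 9325 and 7215 CPM. All 5 decay genes were lower in the mesothelial-like cells, with a median log2 ratio of -0.87. Of 4 counted decay genes in AT1-like cells, 1 was lower and 3 higher (median 0.79). Of 4 in transitional alveolar-like cells, 0 were lower and 1 higher (median 0.19). In club-like cells, smooth muscle-like cells and fibrotic-like fibroblasts, 1 decay gene was lower and 0 higher in each. In 47 and 31 club-like cells 6 of 22 were lower and 5 higher (15.2% and 20.3%), in 70 and 59 smooth muscle-like cells 4 of 27 were lower and 10 higher (19.4% and 19.4%), and in 27 and 18 fibrotic-like fibroblasts 5 of 27 were lower and 9 higher (21.7% and 21.5%).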

How the data were processed

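Deposited matrices held raw UMI counts, one value for each gene in each barcode. They came from Cell Ranger 4.0.0, per the file headers. The library kit was Chromium 3′, per the labels, and the genome build mm10, per the submitters' processing notes. The sources used here state no other settings. A barcode was kept if it had 500 genes or more and no more than 15% mitochondrial UMIs (84.2% of vehicle, 79.9% of navitoclax). Doublets called by Scrublet (scanpy 1.11.5, expected rate 6%) were removed, 3.03% and 3.27%. Free RNA was not subtracted.

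Each cell was assigned to the class with the highest mean marker score, scaled per marker to its 99th percentile, with a minimum of 0.2 and a margin of 0.1 over the next class (0.05 between fibroblast classes). The thresholds were set after the files were seen and were not adjusted. The cells within 0.05 of the margin of 0.1 numbered 41 among AT2-like cells, 184 among fibroblasts and 43 among peribronchial-like fibroblasts. Cells near the margin between fibroblast classes were not counted. Clusters (Leiden, leidenalg 0.10.2, resolution 1, 2000 variable genes, 30 components, 15 neighbours) left out the 36 genes and the other lists.

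CPM had exact Poisson and their ratio conditional exact 95% intervals (scipy 1.17.1). The code was run on sums simulated from the same Poisson model. That run held no spread between cells or preparations, so it checks the computation only. The design names all 36 genes, up to 4 genes per other list by size of the ratio among those with at least 100 UMIs, and Hspa1a, Neat1 and Malat1. Of the listed symbols, 6 had no match or were not used. The members and lists were chosen with earlier results of these data known. The limit of 20 CPM for the second share over all genes was added after the values were seen. Correlations were first computed over all fibroblasts and are given for alveolar-like ones because fibroblast classes differ in level. The shares over genes counted in all 5 classes were also added after the values were seen.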

Additional observations from a re-analysis of the deposited data

Results flagged for a closer look

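Members whose navitoclax to vehicle ratio was past the fold limit in opposite directions in 2 classes were noted, with both counting intervals on 1 side of equality. No test of the difference between classes was possible with 1 library per treatment. Nr4a1 had log2 ratios of -0.38 in adventitial-like and 0.52 in peribronchial-like fibroblasts, a difference of 0.89. Nr4a2 had -0.60 and 1.01 in the same classes, a difference of 1.61. Gadd45g had -0.40 and 0.57 there, a difference of 0.97. Dusp1 had -0.56 in AT2-like cells and 0.36 in peribronchial-like fibroblasts, a difference of 0.92. Gadd45b had -0.82 in alveolar-like fibroblasts and 0.41 in AT2-like cells, a difference of 1.23. The peribronchial-like class held 132 vehicle and 171 navitoclax cells, and 43 of its cells lay near the margin between fibroblasts and other cell types. Cells near the margin between fibroblast classes, on which the contrast with adventitial-like cells rests, were not counted.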

How the results depend on the processing

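No paired analysis was possible because each treatment had 1 library, which also leaves no replicate to leave out. In AT2-like cells the 6 higher members became 3 with a pseudocount of 5 CPM, 3 in cells thinned to 2000 UMIs, 2 at a fold of 1.5, and 3 at a limit of 5% mitochondrial UMIs, an alternative chosen after seeing the data. The 7 lower members became 2 at a fold of 1.5. In pooled fibroblasts the 2 higher members became 1 with every cell weighted equally and 1 at a fold of 1.5, and the 7 lower ones became 3 at a fold of 1.5. The log2 ratio of Klf2 in AT2-like cells went from 0.35 to -0.0166 in thinned cells, which held 128 and 115 of its UMIs (interval -0.39 to 0.36). It was above 0 in 4 of 4 depth quartiles (0.23 to 0.73), 2 of 3 mitochondrial bins and 4 of 5 clusters. The next counts leave out the fold of 1.5. In AT2-like cells Zfp36, Dusp1, Pnrc1, Egr1 and Phlda1 were past the fold limit under 16 of 16 alternatives, and Gadd45a under 6 of 16. In fibroblasts Pim1, Gadd45b, Rgs2, Ier2, Ier5 and Zfp36l2 were past it under 15 of 15. Dusp1 and Pnrc1 in AT2-like cells, and Ier2, Ier5 and Zfp36l2 in fibroblasts, were not past a fold of 1.5. AT2-like cells outside the cluster led by transitional markers, also chosen after seeing the data, gave 0.56 for Phlda1 against 0.63.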
